A study of Mus musculus with 24 samples.

Results

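The 10 genes described here belong to the canonical Wnt pathway, read in the nucleus accumbens (NAc) of male and female mice after subchronic variable stress (SCVS). They are the ligand genes Wnt7a, Wnt7b and Wnt10a, the secreted modulators Sfrp1, Dkk2 and Dkk3, and Ctnnb1, Axin2, Tcf7l2 and Lef1 of the intracellular pathway. They were chosen by name, with earlier results of these data known, and found in the mRNA count table by Ensembl identifier, 10 of 38293 genes. All 10 passed the filter on low counts (over 5 reads in 80% or more of the libraries of any group), as did 18593 genes in all.

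The C57BL/6J mice were 9 weeks old by the sample labels, and the methods give an age 1 week lower. The groups were unstressed males (NSM), males after 6 days of SCVS (SM), unstressed females (NSF) and females after SCVS (SF). Each group had 3 libraries, each library pooled 10 NAc punches from 5 mice, and all females were in estrus or proestrus. Stressed mice received foot shock, tail suspension and restraint in turn, and tissue was taken 24 h after the last stressor, whereas controls stayed in their home cages. Values are CPM (counts relative to the library total) scaled by TMM factors, a correction for library composition, with the SD over the 3 pools of a group, and log2 fold changes carry their SE. A gene was called regulated at an unadjusted p under 0.05 with a change of at least 1.3-fold in a voom-limma fit of all 12 libraries, and adjusted p denotes the Benjamini-Hochberg value over the 18593 genes. The p values measure the spread between pools, not between single mice.

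Wnt proteins are secreted glycolipoproteins that bind Frizzled receptors and LRP co-receptors. In cells without the signal, beta-catenin (Ctnnb1) is marked for degradation by a complex that contains Axin. In cells with it, beta-catenin enters the nucleus and acts with TCF and LEF factors, among them Tcf7l2 and Lef1, on target genes such as Axin2, whose product feeds back on the pathway. Secreted Frizzled-related proteins such as Sfrp1 bind Wnts, and Dkk proteins such as Dkk2 bind LRP co-receptors. In the brain the pathway is known for its roles in synapse formation, vascular development and oligodendrocyte differentiation.

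The libraries held 41076780 to 60867747 reads on genes, and no pair of a group had identical counts. All 10 markers of medium spiny neurons, the principal neurons of the NAc, were tested and none was called in any comparison, with summed levels of 5645 to 7085 CPM over the 12 libraries. Markers of cortical glutamatergic neurons varied much more. The sum of 9 such markers ran from 32.5 to 52.8 CPM in NSM, 73.3 to 225 CPM in SM, 49.0 to 396 CPM in NSF and 69.9 to 141 CPM in SF. Library NSF 2, at 49.0 CPM, stood apart from the other NSF libraries at 284 and 396 CPM. Choroid plexus markers summed to 111 CPM in NSM 1 and to at most 45.5 CPM in the other libraries. All 3 erythroid markers rose in stressed males, with a median log2 fold change of 0.74.

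Promoter sequence is shown for Tcf7l2 and Dkk2, whose levels differed between groups, and for the feedback target Axin2, to display whether the motif bound by TCF and LEF factors lies directly upstream of their starts. The sequences are the 250 bases before RefSeq transcription starts (GRCm38.p6, plus strand), and capitals mark matches on either strand to CTTTG followed by AA, AT, TA or TT. RefSeq windows were at hand for 6 of the 10 genes (Lef1, Dkk2, Wnt7a, Ctnnb1, Axin2 and Tcf7l2), 11 windows in all. The first start of Tcf7l2 lies after chr19:55741560-55741809, its internal start after chr19:55895071-55895320, that of Dkk2 after chr3:132085042-132085291 and that of Axin2 after chr11:108920099-108920348.
Tcf7l2, first start: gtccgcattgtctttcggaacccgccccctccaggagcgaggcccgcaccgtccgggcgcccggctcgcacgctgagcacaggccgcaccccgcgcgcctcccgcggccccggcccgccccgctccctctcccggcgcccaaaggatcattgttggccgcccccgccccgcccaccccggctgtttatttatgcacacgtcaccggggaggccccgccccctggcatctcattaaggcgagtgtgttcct
Tcf7l2, internal start: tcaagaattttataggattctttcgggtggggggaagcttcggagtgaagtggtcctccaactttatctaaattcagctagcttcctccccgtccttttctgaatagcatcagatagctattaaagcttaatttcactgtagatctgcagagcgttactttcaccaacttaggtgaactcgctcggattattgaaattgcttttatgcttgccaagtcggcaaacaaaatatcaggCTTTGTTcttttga
Dkk2: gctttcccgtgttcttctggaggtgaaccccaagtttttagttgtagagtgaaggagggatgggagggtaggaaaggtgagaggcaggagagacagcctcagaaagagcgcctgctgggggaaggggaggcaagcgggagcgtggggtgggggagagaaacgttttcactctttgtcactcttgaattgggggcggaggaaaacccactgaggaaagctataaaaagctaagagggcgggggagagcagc
Axin2: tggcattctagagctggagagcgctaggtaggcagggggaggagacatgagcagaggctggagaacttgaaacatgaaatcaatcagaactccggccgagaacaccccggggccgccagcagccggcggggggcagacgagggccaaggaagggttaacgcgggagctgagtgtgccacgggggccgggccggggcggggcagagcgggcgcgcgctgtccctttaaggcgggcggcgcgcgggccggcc
The internal start of Tcf7l2 was preceded by CTTTGTT, which begins 14 bases before it. The first start of Tcf7l2 and the windows of Dkk2 and Axin2 held no match. Among the other windows only 1 of the 4 of Lef1 held a match, TACAAAG on the strand shown, and the windows of Wnt7a and Ctnnb1 held none. Of all 32851 windows in the table, 14.8% held a match. A match is a description of these letters and not evidence of binding.

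Compared per length, as CPM per kilobase of exon (RPKM), Ctnnb1 was the highest of the 10 genes at 102 ± 4.0 (SD, 12 libraries). Dkk3 followed at 37.4 ± 2.20 RPKM and Wnt7a at 9.85 ± 0.50 RPKM, and these genes kept that order in all 12 libraries. Sfrp1 (3.85 ± 0.27 RPKM), Axin2 (3.62 ± 0.37 RPKM) and Wnt7b (3.43 ± 0.97 RPKM) could not be ordered: Sfrp1 exceeded Axin2 in 8 of 12 libraries, and Axin2 exceeded Wnt7b in 7 of 12. The transcription factor genes lay lower, with Tcf7l2 at 0.77 ± 0.14 RPKM and Lef1 at 0.43 ± 0.05 RPKM, ordered alike in all 12 libraries. Wnt10a (0.25 ± 0.04 RPKM) and Dkk2 (0.21 ± 0.08 RPKM) were the lowest, with Wnt10a above Dkk2 in 10 of 12 libraries. Dkk2 and Wnt7b also varied the most from library to library, with ratios of highest to lowest level of 3.03 and 2.36. Ctnnb1 varied the least, with a ratio of 1.11.

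**Figure D1:**
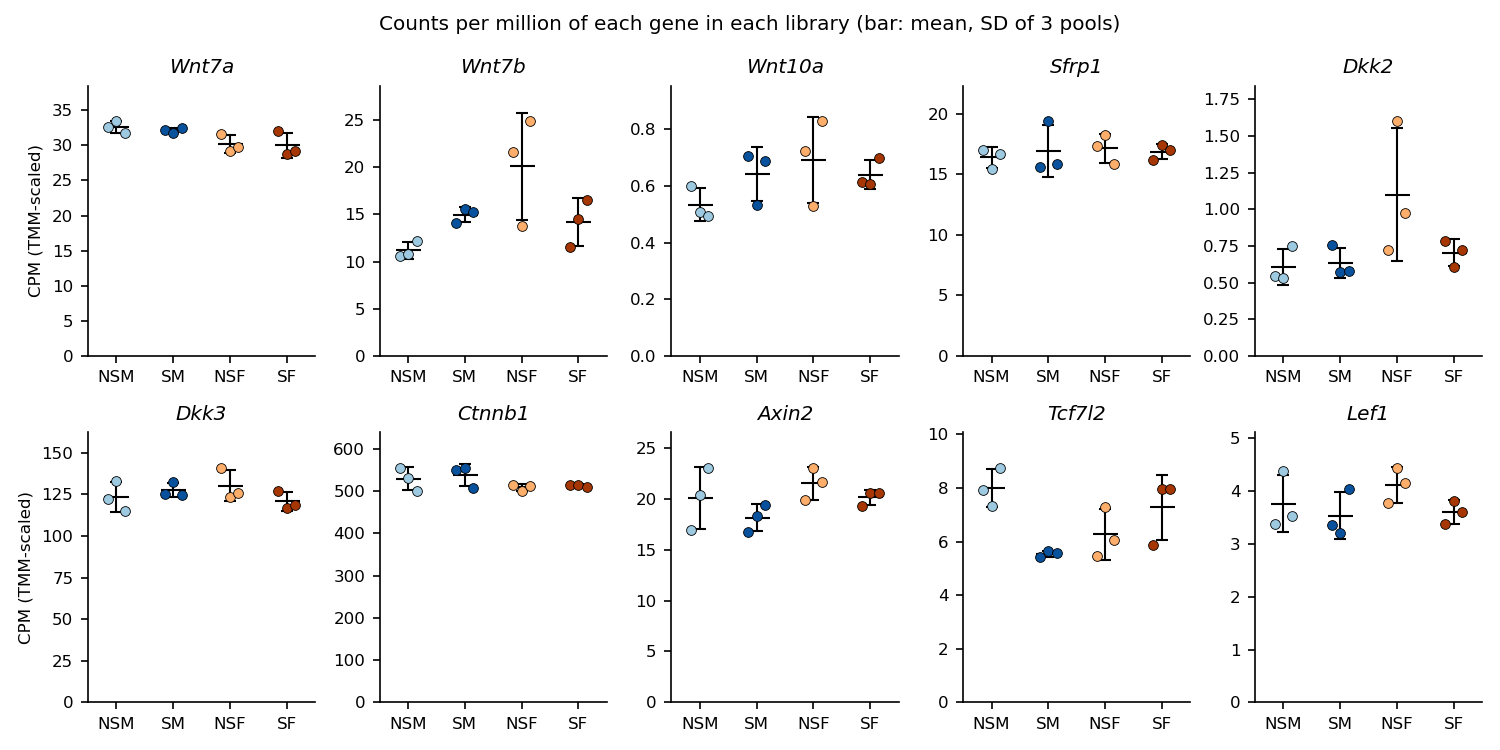
CPM (TMM-scaled, y axis from 0) of each of the 10 genes in the 3 libraries of each group, with NSM and SM in blue and NSF and SF in orange. Bars give the mean and SD of 3 pools: Tcf7l2 was lower in every SM library than in every NSM library, Wnt7b was highest in 2 of the NSF libraries, and Dkk2 was highest in 1 NSF library at 1.60 CPM.

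In males, 2 of the 10 genes were called after SCVS: Tcf7l2 fell and Wnt7b rose. Over all genes 6.44% were called in that comparison, and 3.32% had an adjusted p under 0.05. The groups did not overlap for the same pair of genes, 2 of 10, against 23.0% of all genes tested. The fall of Tcf7l2 stood in the list the study drew from these same libraries, so it is not independent evidence of its direction.

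Tcf7l2 encodes a TCF factor that carries beta-catenin to its target genes, and is also known for its part in oligodendrocyte differentiation and in thalamic neurons. It lies on chromosome 19, 55816300 to 56008144 (NCBIM37, plus strand), and shares no exon bases with another annotated gene. Tcf7l2 measured 7.91, 7.34 and 8.76 CPM in NSM and 5.41, 5.64 and 5.56 CPM in SM. The SM libraries lay close together and all below the lowest NSM library. The log2 fold change was -0.53 ± 0.13 (SE), 1.44-fold lower, with an adjusted p of 0.0484 in limma. In females it measured 5.46, 7.29 and 6.05 CPM in NSF and 5.87, 7.98 and 7.97 CPM in SF. These groups overlapped, and the log2 fold change of 0.20 ± 0.13 was not called (adjusted p = 0.948 in limma, 95% interval -0.08 to 0.47). The difference between the female and the male change, the sex-by-stress interaction, was 0.72 ± 0.19 on the log2 scale and was called (adjusted p = 0.228 in limma). Of all genes, 4.42% were called for the interaction and 0.0269% had an adjusted p under 0.05.

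Before stress, every NSF library had less Tcf7l2 than every NSM library. That difference of -0.34 ± 0.13 (log2, adjusted p = 0.221 in limma) was 1.27-fold and so stayed under the 1.3-fold limit. The group means of Tcf7l2 were thus 8.0 ± 0.72 CPM in NSM, 5.54 ± 0.11 CPM in SM, 6.27 ± 0.94 CPM in NSF and 7.27 ± 1.22 CPM in SF (n = 3 each). In bulk tissue, fewer cells of a type and less RNA per cell cannot be told apart.

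Markers of the cell types that carry Tcf7l2 were read beside it. Of 6 markers of thalamic neurons, 2 had log2 fold changes above 0 in males, and the median was -0.04. Gbx2, a thalamic homeobox gene, was called lower in males (log2 -0.59 ± 0.24, adjusted p = 0.173 in limma), and none of the others was called. The thalamic markers summed to 49.7 to 55.6 CPM in NSM, 47.3 to 54.7 CPM in SM, 59.5 to 79.1 CPM in NSF and 54.9 to 77.7 CPM in SF, and none was at 0 in all libraries. With their mean log2 level in the model, the male change of Tcf7l2 was -0.50 ± 0.13 on the log2 scale. Of 6 markers of differentiating oligodendrocytes and their precursors none was called in males, and they summed to 193 to 210 CPM in NSM, 182 to 202 CPM in SM, 192 to 196 CPM in NSF and 194 to 218 CPM in SF. Of these 6 markers, 4 had log2 fold changes above 0 in males, and the median was 0.08. Gpr17, a receptor of cells early in differentiation, went the other way at -0.22 ± 0.06 (adjusted p = 0.0617 in limma), under the 1.3-fold limit. With the mean log2 level of these markers in the model, an alternative chosen after seeing the data, the male change of Tcf7l2 was -0.53 ± 0.14. Without any 1 of the 12 libraries it ranged from -0.57 to -0.46 and stayed called.

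Other markers also differed between NSM and SM. All 6 markers of mature oligodendrocytes had log2 fold changes above 0 in males (median 0.20), none reached 1.3-fold, and Mog (0.29 ± 0.07) and Mobp (0.32 ± 0.07), both myelin genes, had an adjusted p under 0.05 in limma. They summed to 4601 to 5145 CPM in NSM and 5528 to 5559 CPM in SM, and none was at 0 in all libraries. All 4 septal markers had log2 fold changes below 0 (median -0.29) and none was called, with sums of 43.4 to 52.8 CPM in NSM and 36.1 to 39.8 CPM in SM. None of the 7 choroid plexus markers had a log2 fold change above 0 (median -0.57, 1 called). The same held for the 7 subventricular zone and neuroblast markers (median -0.20, none called). Of 4 microglia markers 3 were above 0, 1 was called higher and 2 had an adjusted p under 0.05 in limma. Of 9 endothelial markers 1 was called lower, and of 6 meningeal fibroblast markers 1 was called in each direction. The part of any of these cells in the fall of Tcf7l2 was not tested.

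Wnt7b, a ligand that is known to act in dendrite growth and in brain vessel development, was called in all 4 comparisons. It lies on chromosome 15, 85365869 to 85412251 (NCBIM37, minus strand), and shares 38 exon bases with AU022754 on the opposite strand, whose reads there cannot be told apart from its own without strand. In males it measured 10.6, 10.9 and 12.2 CPM in NSM and 14.1, 15.6 and 15.2 CPM in SM. Every SM library was higher than every NSM library, and the log2 fold change was 0.42 ± 0.19 (1.34-fold, adjusted p = 0.225 in limma). In females it measured 21.6, 13.8 and 24.9 CPM in NSF and 11.6, 14.5 and 16.6 CPM in SF. It fell in SF by this call (log2 -0.45 ± 0.18, adjusted p = 0.948 in limma), although the groups overlapped because NSF 2 lay within the range of SF. Leaving out 1 library moved the female change between -0.72 (without NSF 2) and -0.27 (without NSF 3), and it was not called without NSF 1, NSF 3 or SF 1. The male change moved between 0.39 and 0.49 and was not called in 6 of 12 such fits, those without NSM 1, NSM 2, any SM library or SF 2.

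By the same call the change of Wnt7b differed between the sexes, with an interaction of -0.87 ± 0.26 on the log2 scale. Its adjusted p was 0.303 in limma, so the difference did not pass at that level. Before stress Wnt7b was 1.72-fold higher in NSF than in NSM, with a log2 difference of 0.78 ± 0.18 (adjusted p = 0.0938 in limma). Every NSF library was above every NSM library. The study drew Wnt7b from these same libraries both for stress in females and for the unstressed groups, so neither direction is independent evidence. The female comparison, the interaction and the comparison of unstressed groups share the NSF or NSM libraries, so their values are not independent of each other.

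As a set, the cortical glutamatergic markers moved with Wnt7b, with 8 of 9 log2 fold changes above 0 in males and none in females. Cux2 changed little, at 25.45 ± 4.3 CPM in NSM, 22.17 ± 3.9 CPM in SM, 25.84 ± 1.3 CPM in NSF and 25.25 ± 3.1 CPM in SF. Slc17a7, the vesicular glutamate transporter of cortical projection neurons, measured 10.8 ± 6.28 CPM in NSM, 107 ± 62.4 CPM in SM, 174 ± 144 CPM in NSF and 54.9 ± 33.2 CPM in SF. Of the 9 markers, 2 were called higher in SM than in NSM, none was called between SF and NSF, 6 were called lower for the interaction and 6 higher in NSF than in NSM, and none was at 0 in all libraries. Over the 12 libraries the log2 level of Wnt7b followed the mean log2 level of the 9 markers with r = 0.91 and rho = 0.92. The permutation p was 2e-05 for r, the smallest that 100000 resamples can give, and 6e-05 for rho (two-sided, adjusted over the 10 genes 0.0002 and 0.0006). Without the 2 libraries farthest from the median score, NSF 1 and NSF 3, r was 0.86. Within the 6 male libraries r was 0.94, within the 6 female libraries 0.94, and for deviations from the group means 0.87.

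With the marker score in the model, the changes of Wnt7b were -0.11 ± 0.13 in males, -0.25 ± 0.10 in females, -0.13 ± 0.18 for the interaction and 0.19 ± 0.14 between the unstressed groups on the log2 scale, and none was called. The male change thus took the opposite sign, whereas the female change kept its sign and stayed under the 1.3-fold limit. The score and the stress groups overlap in part, since every SM library had a higher score than every NSM library, so their shares in the male difference cannot be told apart. Of the other 9 genes, Wnt10a also followed the score (r = 0.75, permutation p = 0.00632, adjusted 0.0316), and r was 0.56 without NSF 1 and NSF 3. For Tcf7l2 r was -0.58 (permutation p = 0.0496, adjusted 0.165), and with the score in its model the male change was -0.46 ± 0.18 and the interaction 0.63 ± 0.26 (log2), both still called.

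**Figure D2:**
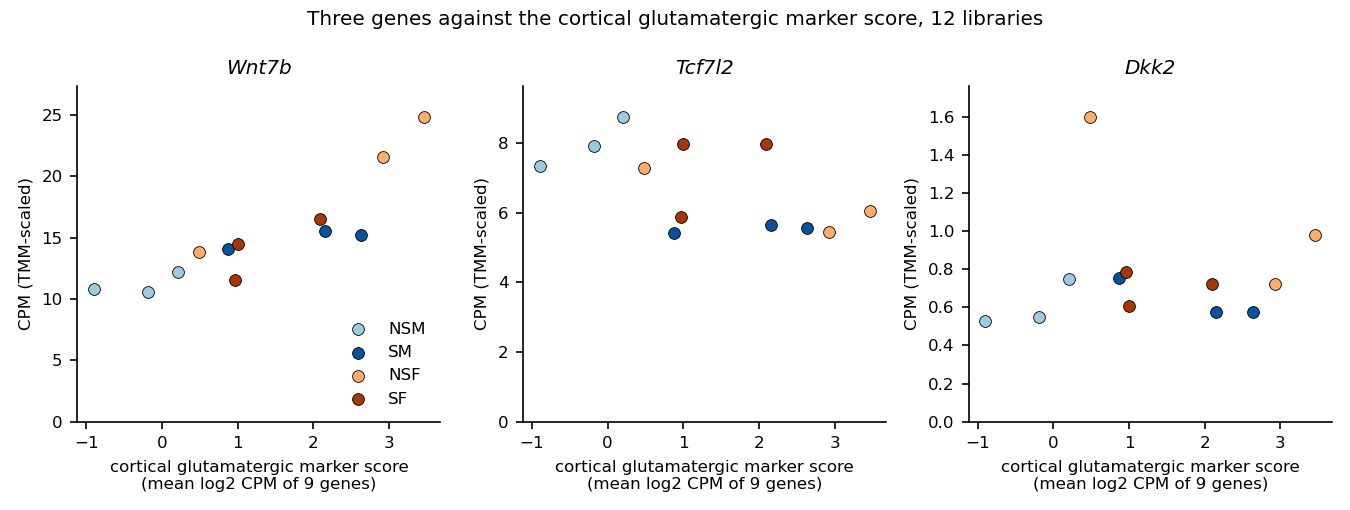
Level of Wnt7b, Tcf7l2 and Dkk2 (CPM, y axis from 0) in each of the 12 libraries against the mean log2 CPM of the 9 cortical glutamatergic markers (x axis), with colors for the groups. Wnt7b rose with the score across all groups (r = 0.91), Tcf7l2 in SM stayed between 5.41 and 5.64 CPM over a range of scores from 0.87 to 2.63, and the high Dkk2 library, NSF 2, had a low score for its group.

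Neither of the other ligand genes was called. Wnt7a, known like Wnt7b as a vascular and synaptic ligand, ranged from 31.8 to 33.5 CPM in NSM, 31.8 to 32.5 CPM in SM, 29.2 to 31.6 CPM in NSF and 28.8 to 32.1 CPM in SF. Its log2 fold change with stress was -0.02 ± 0.05 in males (95% interval -0.14 to 0.09) and -0.01 ± 0.05 in females (95% interval -0.12 to 0.11), so a 1.3-fold change lay outside both intervals. NSF lay below NSM without overlap, by -0.12 ± 0.05 (log2, adjusted p = 0.316 in limma), a 1.08-fold difference that was not called. Wnt10a, a ligand of the canonical branch, rested on 25 to 39 reads per library and 0.49 to 0.83 CPM. No comparison called it, and its intervals were wide, from -0.23 to 0.72 in males and -0.52 to 0.39 in females on the log2 scale.

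Among the secreted modulators, Dkk2 was called in females and between the unstressed groups. It lies on chromosome 3, 131748256 to 131843257 (NCBIM37, plus strand). It measured 0.72, 1.60 and 0.98 CPM in NSF and 0.78, 0.61 and 0.72 CPM in SF. The groups overlapped, and NSF 2 with 97 reads stood above every other library, none of which had more than 46 reads. The log2 fold change in females was -0.62 ± 0.27 (1.54-fold lower, adjusted p = 0.948 in limma). Without NSF 2 it was -0.27 and not called, and it was not called either without SF 2 (-0.51) or SF 3 (-0.65). The study had listed Dkk2 for this comparison and for the unstressed groups from these same libraries, so the values are not independent evidence of its direction.

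In males Dkk2 measured 0.55, 0.53 and 0.75 CPM in NSM and 0.76, 0.57 and 0.58 CPM in SM, and the groups overlapped. The log2 fold change was 0.06 ± 0.31 (95% interval -0.60 to 0.72), so these libraries neither showed nor excluded a change of 1.3-fold. The interaction of -0.69 ± 0.41 was not called (adjusted p = 0.644 in limma), so the female change was not shown to differ from the male one. NSF exceeded NSM by 0.84 ± 0.27 (log2, adjusted p = 0.168 in limma), with NSF 1 at 0.72 CPM below NSM 3 at 0.75 CPM. Without NSF 2 the difference was 0.49 and not called, whereas with the cortical marker score in the model it was 1.46 and the interaction of -1.45 was called.

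Dkk3, which differs from the other Dkk proteins in that its action on LRP co-receptors is uncertain, was the most abundant secreted modulator of the set. It ranged from 115 to 133 CPM in NSM, 125 to 133 CPM in SM, 124 to 141 CPM in NSF and 117 to 127 CPM in SF. Its log2 fold change was 0.05 ± 0.06 in males (95% interval -0.09 to 0.19) and -0.11 ± 0.06 in females (95% interval -0.24 to 0.03). Sfrp1, the Wnt-binding decoy, ranged from 15.4 to 19.4 CPM over the 12 libraries. Its log2 fold change was 0.04 ± 0.08 in males and -0.02 ± 0.08 in females, with intervals of -0.14 to 0.22 and -0.20 to 0.15. No comparison called either gene, and their intervals for both sexes lay inside a 1.3-fold change.

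In females 2 of the 10 genes were thus called after SCVS, Wnt7b and Dkk2, both lower. The study had named both as lower in females from these same libraries, so their share of the 10 is not independent evidence. Over all genes 1.73% were called in females, 1.09% lower, and 0 of 18593 had an adjusted p under 0.05. No gene of the 10 separated the female groups without overlap, against 11.3% of all genes. Between the unstressed groups 2 of 10 were called, Wnt7b and Dkk2, both higher in NSF, where 5.31% of all genes were called (4.17% higher, 0.285% at an adjusted p under 0.05), and 3 of 10 did not overlap (Wnt7a, Wnt7b and Tcf7l2), against 19.5% of all genes. For the interaction 2 of 10 were called, Wnt7b and Tcf7l2, in opposite directions, against 4.42% of all genes. The median log2 fold change of the 10 genes was 0.03 in males, -0.08 in females and 0.10 between the unstressed groups, against -0.01, -0.00392 and 0.00335 over all genes.

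**Figure D3:**
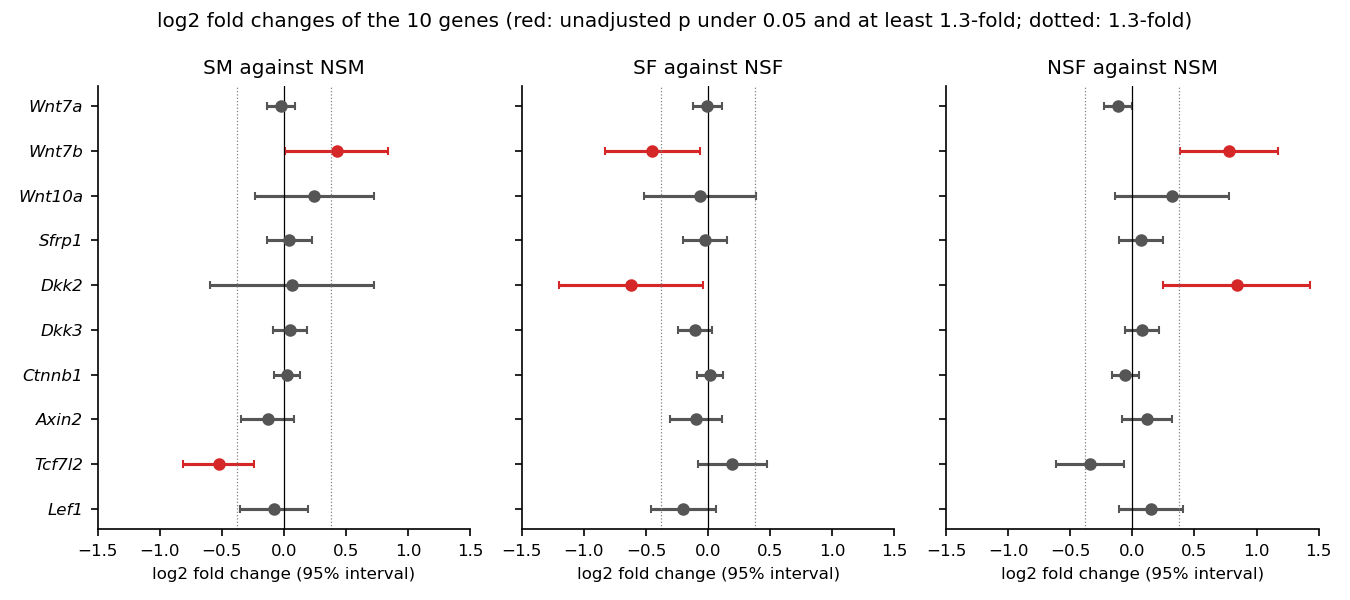
log2 fold changes (x axis, points with 95% intervals) of the 10 genes for SM against NSM, SF against NSF and NSF against NSM, in red where called. Tcf7l2 (-0.53) and Wnt7b (0.42) were called in males, Wnt7b (-0.45) and Dkk2 (-0.62) in females, and the intervals of Ctnnb1 and Wnt7a lay inside the dotted lines at 1.3-fold in every panel.

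Ctnnb1, Axin2 and Lef1 were not called in any comparison. Ctnnb1 lies on chromosome 9 and shares 240 exon bases with Ulk4 on the opposite strand. It ranged from 501 to 555 CPM in NSM, 507 to 554 CPM in SM, 499 to 514 CPM in NSF and 509 to 515 CPM in SF. Its log2 fold change was 0.02 ± 0.05 in males (95% interval -0.08 to 0.13) and 0.01 ± 0.05 in females (95% interval -0.09 to 0.12). These are mRNA levels, and the amount of beta-catenin protein was not measured.

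Axin2, a direct target and feedback inhibitor of the pathway, lies on chromosome 11 and shares 209 exon bases with Gm11670 on the opposite strand. It measured 16.9, 20.3 and 23.0 CPM in NSM and 16.7, 18.3 and 19.3 CPM in SM, then 19.8, 23.0 and 21.6 CPM in NSF and 19.3, 20.5 and 20.6 CPM in SF. The NSM libraries spanned the range of nearly all others. The log2 fold change was -0.13 ± 0.10 in males (95% interval -0.35 to 0.08) and -0.10 ± 0.10 in females (95% interval -0.31 to 0.11), so that a fall of 1.3-fold lay just outside both intervals. The interaction was 0.03 ± 0.14. Lef1, a partner of beta-catenin and itself a target, ranged from 3.21 to 4.44 CPM over the 12 libraries, with log2 fold changes of -0.08 ± 0.13 in males and -0.20 ± 0.12 in females (95% interval -0.46 to 0.06). In males the mRNA of neither Axin2 nor Lef1 had a called change beside that of Tcf7l2. Without any 1 of the 12 libraries, the male change of Axin2 ranged from -0.25 to -0.02 and was not called.

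Likeness over the 12 libraries was measured by Pearson's r of log2 CPM with 16875 genes that have a symbol and average 10 or more reads, and genes among the 3 closest are named for each. These values describe shared variation over libraries that also share depth, sex and tissue makeup, and the best of so many genes is high by selection. Wnt7b was closest to Basp1, Wnt9a and Dlgap1 (r = 0.96 each). Tcf7l2 was closest to Dgkk (r = 0.91), B430203G13Rik and Sntb1 (r = 0.89 each). Dkk2 was closest to Peli3 (r = 0.86), Aim1l (r = 0.83) and Grasp (r = 0.82). Ctnnb1 was closest to Ssr2, Ppp1r11 and Fyn (r = 0.96 each), and genes close to Axin2 were Crocc and Tmprss9 (r = 0.94 each). Wnt7a was closest to Med6 (r = 0.94), Mrpl3 (r = 0.91) and Entpd3 (r = 0.91), and Wnt10a to Tpm2 (r = 0.92), Shisa5 (r = 0.92) and Sult4a1 (r = 0.91). Genes close to Dkk3 were Rxrg (r = 0.91) and Necab1 (r = 0.89). Lef1 was closest to Shq1 (r = 0.88), 2010003O02Rik and S1pr4 (r = 0.87 each), and Sfrp1 to Lrrc46 (r = 0.87), Mad1l1 and Pif1 (r = 0.85 each). Among the 45 pairs of the 10 genes, the highest r was between Wnt7b and Wnt10a (0.73) and the lowest between Ctnnb1 and Axin2 (-0.86).

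The rest of the pathway was read from 7 lists of 95 genes by role, of which 88 were tested. In males 6 of 88 were called (6.82%, against 6.44% of all genes), 3 in each direction. The ligand genes Wnt3 (log2 0.40 ± 0.15) and Wnt4 (0.42 ± 0.15) and the Dkk-like gene Dkkl1 (2.59 ± 1.01) rose. Wnt11 (-1.0 ± 0.38) and the secreted inhibitors Wif1 (-0.82 ± 0.26) and Sfrp2 (-0.52 ± 0.23) fell. None of these 6 had an adjusted p under 0.05, while the Dkk receptor gene Kremen1 had one (0.0183 in limma) at a change of 0.33 ± 0.06 that stayed under 1.3-fold. Wnt11 averaged 7.0 reads per library and Wif1 22.8, so both rest on few reads. The study had listed the rise of Dkkl1 and the falls of Wnt11, Wif1 and Sfrp2 from these same libraries. Those directions are thus not independent evidence. The study also listed Wnt2b and the receptor gene Ror2 as lowered in males, as predicted targets of upregulated miRs. Neither was called in males here. Wnt2b measured 3.74 ± 0.34 CPM in NSM and 2.89 ± 0.27 CPM in SM. Ror2 measured 0.53 ± 0.07 CPM in NSM and 0.40 ± 0.03 CPM in SM.

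Dkkl1 ran from 0.11 to 0.18 CPM in NSM, 0.43 to 1.31 CPM in SM, 0.25 to 2.48 CPM in NSF and 0.43 to 0.83 CPM in SF. Its group means had the order of the group medians of the summed cortical glutamatergic markers, with NSM lowest, then SF, SM and NSF. The single markers Emx1 and Cux2 were ordered otherwise. With the score of these markers in the model, the male change of Dkkl1 was 0.51 and not called. Wnt4 had 2.8 ± 0.49 CPM in NSM and 3.69 ± 0.51 CPM in SM, and with the score its male change was 0.15 and not called. With the score in the model, the changes of Wif1 (-0.84) and Sfrp2 (-0.82) were still called.

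In females 1 of the 88 genes was called (1.14%, against 1.73% of all genes). It was Sox5, a Sox factor that the study had named from these same libraries for stress in females, so that its direction is not independent evidence, with 20.9 ± 4.52 CPM in NSF and 15.01 ± 1.21 CPM in SF and a log2 fold change of -0.44 ± 0.14 (adjusted p = 0.948 in limma). Without NSF 1 no gene of the 88 was called, and without NSF 2 there were 8. With the cortical marker score in the model, the change of Sox5 was -0.29 and no gene of the 88 was called. No gene was called with stress in either sex among the 20 receptors and co-receptors, the 6 genes of ligand secretion and R-spondins, the 16 genes of the Dishevelled and destruction complex group, or the 12 other beta-catenin targets. The median log2 fold change of these last 12 was 0.05 in males and -0.05 in females.

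The interaction called 9 of the 88 genes (10.2%, against 4.42% of all genes). It was positive for Wnt2b (0.41 ± 0.18) and Wnt11 (1.22 ± 0.51). It was negative for Wnt4 (-0.60 ± 0.20), Wnt9a (-2.11 ± 0.85), Rspo3 (-1.26 ± 0.58), Dkkl1 (-3.30 ± 1.25), Frzb (-1.62 ± 0.72), Sox5 (-0.78 ± 0.21) and Apcdd1 (-0.39 ± 0.10). With the cortical marker score in the model, 3 genes were called, Myc, Sfrp2 and Ror1, and none of these 9 was among them.

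Between the unstressed groups 14 of the 88 genes were called (15.9%, against 5.31% of all genes), all higher in NSF. They included the ligand genes Wnt1, Wnt3, Wnt4, Wnt5b, Wnt9a and Wnt10b, and the R-spondin genes Rspo1 and Rspo3, which enhance Wnt signals. The others were the receptor gene Fzd8, the Dkk-like gene Dkkl1, the inhibitor gene Frzb, and Sox5, Ccnd1 and Sox17. The log2 differences of the 14 genes ran from 0.40 ± 0.12 (Ccnd1, a cyclin) to 2.63 ± 0.99 (Dkkl1). Wnt4, at 2.8 ± 0.49 CPM in NSM and 4.68 ± 0.53 CPM in NSF, had an adjusted p of 0.0499 in limma, and the other 13 did not pass at 0.05. The median log2 difference was 0.48 for the 11 tested ligands and 0.54 for the 6 genes of ligand secretion and R-spondins. Markers of neighboring regions moved with these genes: 6 of 9 cortical glutamatergic, 3 of 4 septal and 2 of 6 thalamic markers were called higher in NSF. Septal markers summed to 43.4 to 52.8 CPM in NSM and 58.0 to 84.8 CPM in NSF, and none was at 0 in all libraries. With the cortical marker score in the model 4 of the 88 genes were called, and Wnt3 and Wnt4 were those of the 14 among them. With the thalamic score 4 were called, and Wnt3, Wnt4 and Rspo1 were those of the 14 among them.

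**Figure D4:**
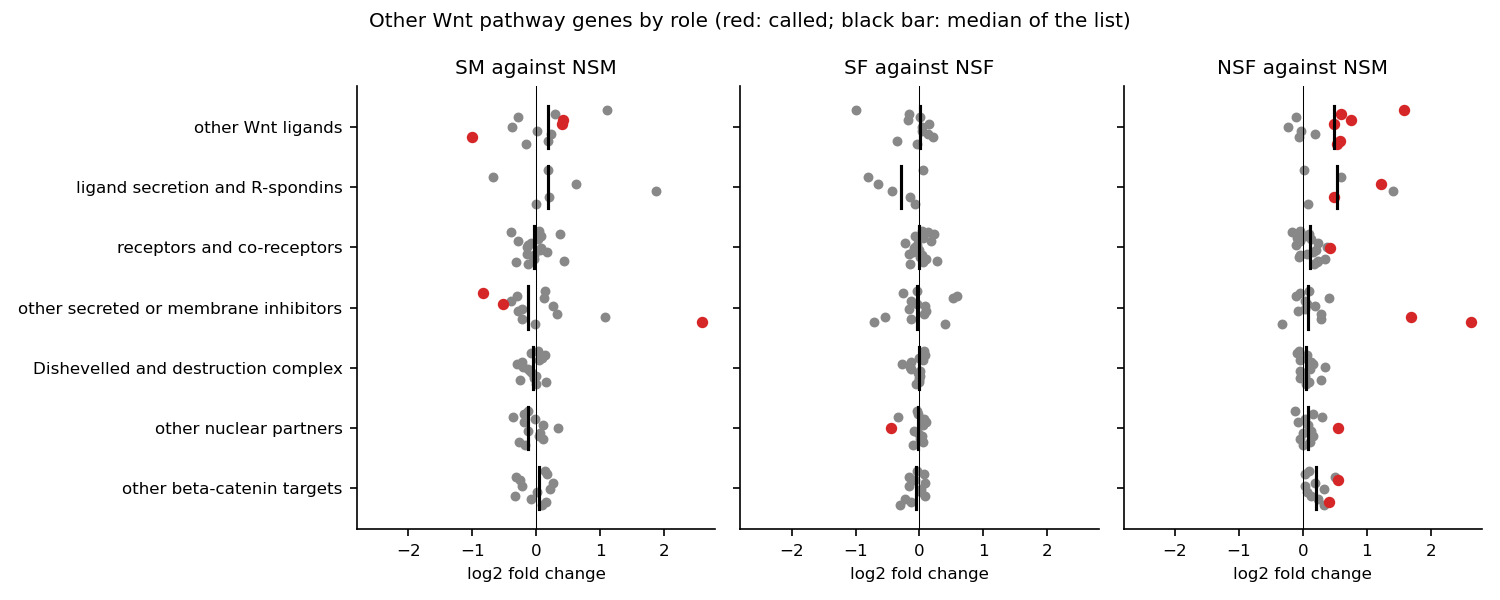
log2 fold changes (x axis) of the tested genes of 7 lists of other Wnt pathway genes (rows) for SM against NSM, SF against NSF and NSF against NSM, with called genes in red and the list median as a black bar. In males 3 genes rose and 3 fell, in females 1 fell, and between the unstressed groups all 14 called genes lay above 0.

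The ligands Wnt3a, Wnt6, Wnt8a, Wnt8b and Wnt9b and the inhibitors Dkk4 and Sost did not pass the filter. Wnt3a reached at most 7 reads in a library and Dkk4 had 2 reads over all 12 libraries, so changes in these genes were not tested here. The study did list Wnt3a as raised by stress in males, as a predicted target of a downregulated miR. In these counts Wnt3a measured 0.02 ± 0.001 CPM in NSM and 0.10 ± 0.08 CPM in SM.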

How the data were processed

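mRNA was measured in 12 libraries of pooled NAc punches. Per the submitters' processing notes and the methods, the authors aligned paired reads to NCBIM37 (mm9, Ensembl annotation) with TopHat2 and counted them with HTSeq. The deposited values are raw read counts per gene, without normalization. The strand setting is not given in the sources used here, and the library kit does not mark strand. Small RNA counts were not used here.

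The 10 genes, the pathway lists and the marker lists were chosen with earlier results of these data known. Libraries were assigned from their labels. limma 3.58.1 and edgeR 4.0.16 were run in R 4.3.3: genes with over 5 reads in 80% or more of the libraries of any group were kept, scaled by TMM, passed through voom and fitted with 1 mean per group. The filter, voom-limma and the call rule follow the study's methods, which give no scaling factors. The 4 comparisons were stress in each sex, their difference, and unstressed females against unstressed males. Calls and thresholds are those given above, and 95% intervals come from the moderated fit. Levels in RPKM use merged exons of the GENCODE annotation of NCBIM37, which gave symbols by Ensembl identifier (4504 of 38293 had none). The named genes are all 10 members, every called gene of the pathway lists, and for each member the 3 genes closest in log2 CPM, of which 2 are not reported here. Marker scores are mean log2 CPM of a list. The alternatives tried were DESeq2 1.42.0, the quasi-likelihood test of edgeR, other scalings and filters, a replicate block, marker scores as covariates and leaving out each library. Correlations used Python 3.11.15 and scipy 1.17.1 with 100000 permutations. The fit was tested on simulated data. Read depth limits Wnt10a and Dkk2 most, with under 100 reads per library.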

Additional observations from a re-analysis of the deposited data

Results flagged for a closer look

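The change after SCVS differed between females and males by the interaction test (unadjusted p under 0.05 and at least 1.3-fold) for 2 of the 10 genes and 9 of 88 other pathway genes, against 4.42% of all genes, and none of the 11 had an adjusted p under 0.05 in limma. For Tcf7l2 the female log2 fold change exceeded the male one by 0.72 ± 0.19 (SE), and it was the member whose interaction was called in every alternative run. For Wnt7b the difference was -0.87 ± 0.26, and -0.13 ± 0.18 with the cortical glutamatergic marker score in the model. Among the other pathway genes the difference was 0.41 for Wnt2b, 1.22 for Wnt11, -0.60 for Wnt4, -2.11 for Wnt9a, -1.26 for Rspo3, -3.30 for Dkkl1, -1.62 for Frzb, -0.78 for Sox5 and -0.39 for Apcdd1. The part of tissue makeup in these differences was not tested beyond the marker scores given above.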

How the results depend on the processing

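Of 910 alternative log2 fold changes of the 10 genes over the 4 comparisons, 837 kept their direction and their side of the call, 23 lost the call, 6 gained it and 44 changed sign. Whether the replicate numbers pair the libraries is not known. Deviations of libraries with the same number correlated at r = -0.00032 to 0.32 in males. The range was 0.078 to 0.11 in females and -0.029 to 0.14 between the unstressed groups. A replicate block left 2 members called in each comparison and called 3 of the other pathway genes in females instead of 1. Over all genes, those with an adjusted p under 0.05 in limma rose with the block from 618 to 998 in males. They rose from 53 to 562 between the unstressed groups and from 5 to 9 for the interaction, and stayed at 0 in females.

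Members called fell from 2 to 1 in males with library size scaling, the cortical score or the oligodendrocyte score, in females with the cortical, thalamic or oligodendrocyte score, and between the unstressed groups with the cortical score. In females 0 were called when only the libraries compared were fitted. By adjusted p the count was 1 in males and 0 in the other comparisons. Leaving out 1 library gave 1 to 2 members in each sex, 2 to 3 for the interaction and 2 to 3 between the unstressed groups. The male call of Wnt7b was lost without NSM 1, NSM 2, SM 1, SM 2, SM 3 or SF 2, and its female call without NSF 1, NSF 3 or SF 1.

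Of the other pathway genes, 11 were called in males with the thalamic score or only the libraries compared, and 1 by adjusted p. In females the count was 3 with DESeq2, 4 with edgeR or the oligodendrocyte score, 2 with only the libraries compared, 5 with the thalamic score, and 0 with the cortical score or by adjusted p. For the interaction it was 3 with the cortical score and 0 by adjusted p. Between the unstressed groups it was 4 with the cortical or thalamic score and 1 by adjusted p. Leaving out 1 library gave 3 (without SM 2) to 11 (without NSM 1) in males, 0 to 8 in females, 4 (without NSM 2 or SM 2) to 12 for the interaction and 9 (without NSM 1) to 18 between the unstressed groups.

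Signs changed with the cortical score in males for Wnt7b (-0.11), Wnt10a (-0.074) and Lef1 (0.00648), in females for Wnt10a (0.043), for the interaction in Wnt10a (0.12), Wnt9a (0.11), Rspo3 (0.32) and Frzb (0.18), and between the unstressed groups in Wnt10a (-0.017), Wnt9a (-0.14) and Rspo3 (-0.0310). With library size scaling they changed for Ctnnb1 in males (-0.0284), in females (-0.0047) and for the interaction (0.024), and for Sfrp1 in males (-0.0045). In females Wnt7a changed with DESeq2 (6.06e-05), the oligodendrocyte score (0.011) and the thalamic score (0.016), and Ctnnb1 with the oligodendrocyte score (-0.019). For the interaction Ctnnb1 changed with at least 1 read in any library as the filter (0.000890) and the thalamic score (0.0025), and Axin2 with the thalamic score (-0.0017). None of the values whose sign changed under these settings was called there.

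Leaving out 1 library changed signs within these ranges. In males they were -0.034 to 0.010 for Wnt7a, -0.055 to 0.22 for Dkk2, -0.011 to 0.068 for Ctnnb1, -0.18 to 0.042 for Lef1 and -0.056 to 0.099 for Sfrp1. In females they were -0.056 to 0.032 for Wnt7a, -0.28 to 0.076 for Wnt10a and -0.076 to 0.026 for Sfrp1. For the interaction they were -0.035 to 0.044 for Wnt7a, -0.048 to 0.028 for Ctnnb1, -0.073 to 0.15 for Axin2 and -0.13 to 0.034 for Sfrp1, and between the unstressed groups -0.014 to 0.22 for Axin2. The cause of these changes was not tested.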
